A study of Mus musculus with 11 samples.

Results

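The cytochrome P450 genes described here are the 83 genes of family symbols (Cyp, a family number, letters and a member number) that the array measured outside the steroid-making set of the adrenal cortex. They were taken from the value table by symbol alone: a feature had to pair with exactly 1 gene symbol, and Cyp11a1, Cyp11b1, Cyp11b2 and Cyp21a1 were left out by the rule. The 83 genes stand among 30142 genes tested. A further 8 symbols of this form in the RefSeq gene table (Cyp19a1, Cyp2a5, Cyp2c29, Cyp2d11, Cyp2j7, Cyp4a10, Cyp4a29 and Cyp4v3) had no feature with a single symbol and were not analysed here. The rule on symbols used no expression value, but the P450 genes were chosen as a subject with earlier results of these data known. Each of the 83 genes had 1 feature (a transcript cluster of probes).

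Total RNA from 3 tissues of wild-type C57B6 mice, male and female and 2 months old, was hybridised to Affymetrix mouse transcriptome 1.0 arrays. The carotid body (CB), the oxygen-sensing organ at the fork of the carotid artery, gave 3 arrays. The adrenal medulla (AM), the catecholamine-secreting core of the adrenal gland, gave 4 arrays, as did the superior cervical ganglion (SCG), a sympathetic ganglion of the neck. Each CB array held RNA pooled from 10 mice, and each AM or SCG array RNA pooled from 3, so a replicate is a pool of animals and the spread between single mice was not measured. No animal was treated, and no group carried a transgene or a deletion.

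P450 enzymes are haem proteins of the endoplasmic reticulum or the inner mitochondrial membrane that insert an oxygen atom into a substrate with electrons from a partner protein. Families 1 to 3 mostly oxidise drugs, pollutants and polyunsaturated fatty acids and are known above all from the liver, where receptors for foreign compounds and lipids control them. Family 4 hydroxylates fatty acids and eicosanoids, and other families act on cholesterol, bile acids, vitamin D or retinoic acid.

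The 250 bases before the annotated start of 4 of these genes are shown because their genes carried the largest difference of each comparison or, for Cyp2j9, had another order of tissues than Cyp2j12 of the same subfamily. The sequences are from RefSeq on build GRCm38.p6, which held such a window for 66 of the 83 genes and for 14 of the 18 genes described in detail. They run 5′ to 3′ on the gene's strand and end at the base before the start. Capitals mark a TATA box (TATAAA) or a CCAAT box, which reads ATTGG where it lies on the opposite strand. Cyp2e1 lies on the plus strand at chr7:140763569-140763818, Cyp1b1 on the minus strand at chr17:79715062-79715311, Cyp2j12 on the minus strand at chr4:96141153-96141402 and Cyp2j9 on the minus strand at chr4:96591486-96591735.
Cyp2e1: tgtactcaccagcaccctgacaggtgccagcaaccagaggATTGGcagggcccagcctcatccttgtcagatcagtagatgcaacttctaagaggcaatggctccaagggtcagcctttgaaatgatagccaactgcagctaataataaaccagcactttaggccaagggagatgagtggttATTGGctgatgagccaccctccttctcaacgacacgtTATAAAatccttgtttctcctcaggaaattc
Cyp1b1: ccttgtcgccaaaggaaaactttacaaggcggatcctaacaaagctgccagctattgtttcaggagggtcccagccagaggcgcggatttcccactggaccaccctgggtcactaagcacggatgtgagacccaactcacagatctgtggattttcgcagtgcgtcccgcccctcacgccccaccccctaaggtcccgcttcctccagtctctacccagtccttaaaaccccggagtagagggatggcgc
Cyp2j12: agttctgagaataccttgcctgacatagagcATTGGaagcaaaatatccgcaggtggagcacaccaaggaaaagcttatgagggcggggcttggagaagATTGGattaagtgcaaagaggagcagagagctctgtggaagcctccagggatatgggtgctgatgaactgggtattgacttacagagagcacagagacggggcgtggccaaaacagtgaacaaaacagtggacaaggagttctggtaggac
Cyp2j9: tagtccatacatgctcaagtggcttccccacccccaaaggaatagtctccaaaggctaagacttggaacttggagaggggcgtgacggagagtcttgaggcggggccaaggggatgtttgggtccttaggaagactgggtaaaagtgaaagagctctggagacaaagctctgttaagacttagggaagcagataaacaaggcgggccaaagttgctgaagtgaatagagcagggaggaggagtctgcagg
The Cyp2e1 window held a TATA box at bases 31 to 26 before the start and CCAAT boxes on the opposite strand at bases 210 to 206 and 68 to 64 before it. Cyp2j12 held CCAAT boxes on the opposite strand at bases 219 to 215 and 151 to 147 before its start. None of the searched letters was found in the Cyp1b1 or Cyp2j9 window.

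Both strands were searched for 4 motifs, each counted on its own, so matches of different motifs may overlap. The aryl hydrocarbon receptor element TNGCGTG occurred in 4.1% of all 32851 RefSeq promoter windows and in 1 of the 73 windows of P450 genes (some genes have several starts), which belonged to none of the 18 genes. The NR5A nuclear receptor site AAGGTCA occurred in 4.08% of all windows and in 6 of the 73, among them Cyp2f2. TATAAA was found in 12.4% of all windows and in 23 of the 73, while CCAAT was found in 33.8% and in 32. These matches describe letters in a window and do not show binding.

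Most P450 genes gave no signal above background in any of the 3 tissues. Vomeronasal receptor and keratin-associated protein genes (540 in all) were taken as silent, and the 95th percentile of their means served as a background bound: log2 5.41 in CB, 5.36 in AM and 5.45 in SCG. A mean at or under the bound is called the background range and gives only an upper limit. In all, 54 of the 83 genes (65.1%) lay in the background range in every tissue, against 41.5% of all genes tested. Another 19 were above the bound in all 3 tissues and 10 in 1 or 2 of them. Above the bound were 23 genes in CB, 21 in AM and 27 in SCG.

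The 54 genes in the background range held most of the families best known from the liver. All 3 measured Cyp2a genes (Cyp2a4, Cyp2a12 and Cyp2a22) and all 5 Cyp2b genes (Cyp2b9, Cyp2b10, Cyp2b13, Cyp2b19 and Cyp2b23) were there. So were 13 of 14 Cyp2c genes (Cyp2c23, Cyp2c37, Cyp2c38, Cyp2c39, Cyp2c40, Cyp2c50, Cyp2c54, Cyp2c55, Cyp2c66, Cyp2c67, Cyp2c68, Cyp2c69 and Cyp2c70), with Cyp2c65 as the exception. The Cyp2d subfamily had 6 of 8 there (Cyp2d9, Cyp2d12, Cyp2d13, Cyp2d26, Cyp2d34 and Cyp2d40), and Cyp3a had 6 of 7 (Cyp3a11, Cyp3a16, Cyp3a25, Cyp3a44, Cyp3a57 and Cyp3a59). Cyp2ab1, Cyp2g1, Cyp2t4, Cyp2w1, Cyp2j5, Cyp2j11 and Cyp2j13 were there as well. Of the 52 genes of families 2 and 3 other than the vitamin D enzyme Cyp2r1, 40 were in the background range.

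Both measured Cyp1a genes, Cyp1a1 and Cyp1a2, which the aryl hydrocarbon receptor induces, were in the background range in every tissue. So were the fatty acid hydroxylases Cyp4a14, Cyp4a31, Cyp4a32, Cyp4f39 and Cyp4f40, and the bile acid enzymes Cyp7a1 (the rate-limiting step of bile acid synthesis) and Cyp8b1. The retinoic acid hydroxylases Cyp26a1 and Cyp26c1, the vitamin D enzymes Cyp24a1 and Cyp27b1, and Cyp17a1, which makes androgens in gonads and is little expressed in the adult mouse adrenal, were there too. Tissue means of the 54 genes ran from log2 3.69 to 5.25. The highest was Cyp2j11 in SCG, with 5.52, 5.35, 4.90 and 5.23 on the 4 arrays, so that 1 array lay above the bound. Cyp2j11 also had the largest difference among them, 0.98 between SCG and AM. Of the 54 genes, 0 were called in any comparison by limma, where a call needed an adjusted p under 0.05 and a 2-fold difference. In CB against AM, CB against SCG and AM against SCG, 9, 4 and 9 had an unadjusted p under 0.05. An adjusted p under 0.05 was reached by 1, 3 and 6 of them, with differences short of 2-fold. Sets of paralogues such as Cyp2c and Cyp2d are near-identical in parts, so signal may be shared between their probes.

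**Figure D1:**
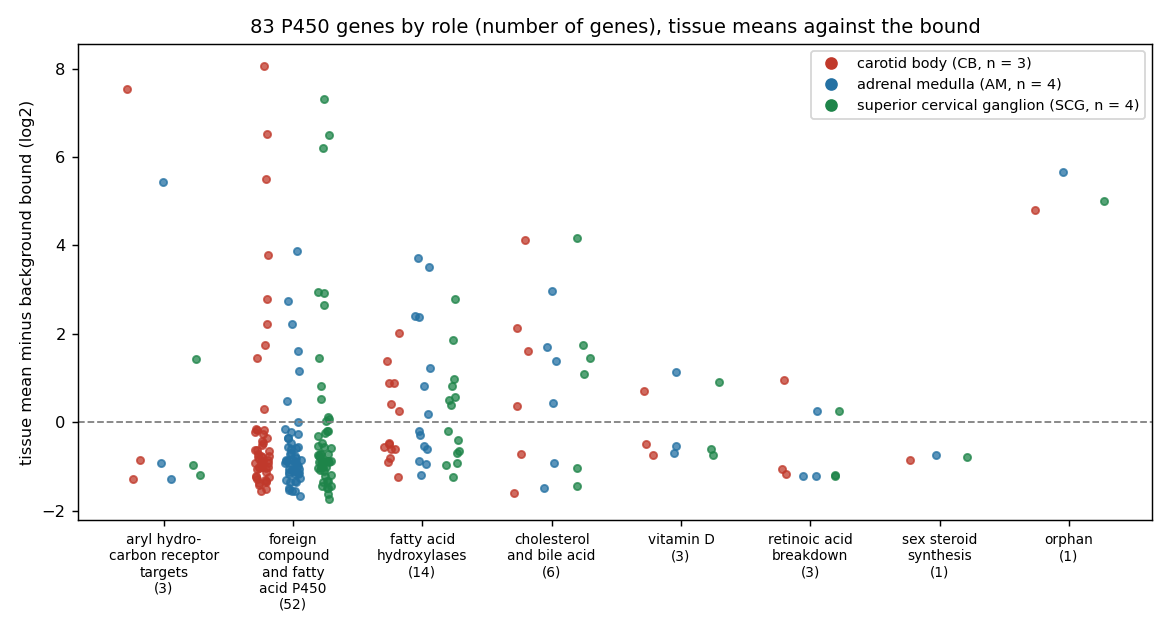
Each point is the mean log2 value of 1 P450 gene in 1 tissue minus that tissue's background bound (y axis), grouped by role (x axis, with the number of genes), for CB (n = 3 arrays), AM (n = 4) and SCG (n = 4). Points at or under 0 are in the background range, where 54 of the 83 genes lay in all 3 tissues.

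Among the 83 genes, 8 were higher and 4 lower in CB than in AM, 3 were higher and 6 lower in CB than in SCG, and 5 were higher and 10 lower in AM than in SCG. A gene was called where limma's adjusted p (Benjamini-Hochberg, over all 30142 genes) was under 0.05 and the difference at least 2-fold. Across all genes, 6.06% were called higher and 4.95% lower in CB than in AM, beside 9.64% and 4.82% of the P450 genes. For CB against SCG the shares were 5.61% and 8.28% of all genes and 3.61% and 7.23% of the P450 genes. For AM against SCG they were 5.72% and 7.50% of all genes and 6.02% and 12.0% of the P450 genes. The 3 genes higher in CB than in SCG became 5 without CB replicate 1 and 5 without SCG replicate 3. The 3 comparisons share arrays and are not independent. The median difference of the P450 genes was 0.11, -0.03 and -0.11 log2 units in CB minus AM, CB minus SCG and AM minus SCG, beside 0.05, -0.02 and -0.08 for all genes. The arrays of the tissues compared did not overlap for 35, 23 and 30 of the 83 P450 genes in these comparisons, beside 38.3%, 35.9% and 36.9% of all genes. Among them were all 12, 9 and 15 called ones. The calls fell on 18 genes, which are described by role. In these bulk tissues, fewer cells of a type and less RNA per cell cannot be told apart.

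**Figure D2:**
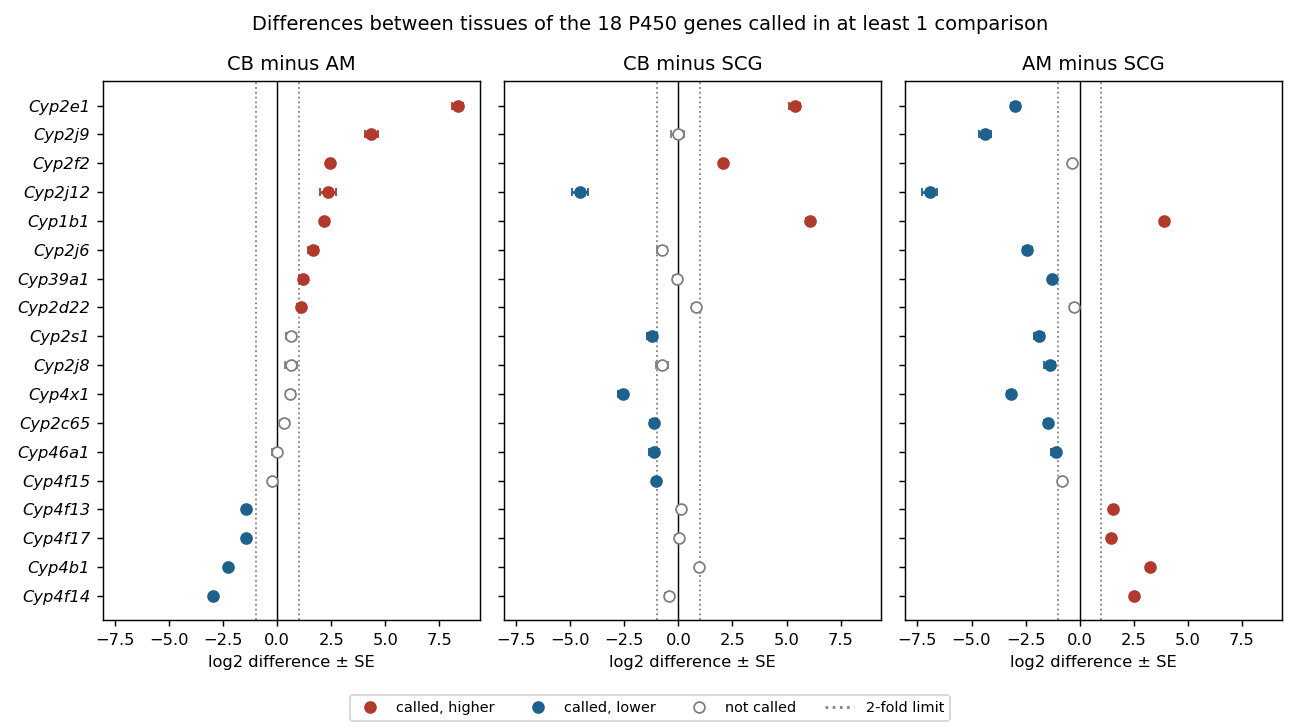
Points are log2 differences between tissues (x axis) with their standard error from limma for the 18 P450 genes called in at least 1 comparison (y axis), in 3 panels. Filled points were called and open points were not. Cyp2e1 and Cyp1b1 lie far to the right in CB minus SCG, while Cyp2j12 lies far to the left there and in AM minus SCG.

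Cyp1b1, which oxidises polycyclic hydrocarbons and oestradiol and is a target of the aryl hydrocarbon receptor, was highest in CB, intermediate in AM and lowest in SCG. Its values (cluster TC1700002571.mm.1) were 13.35, 12.69 and 12.80 on the CB arrays, 10.67, 10.72, 10.95 and 10.80 on the AM arrays and 7.08, 6.81, 6.71 and 6.88 on the SCG arrays. The 3 tissues did not overlap, and all 11 arrays were above the bound. CB exceeded AM by 2.16 ± 0.15 log2 units (SE, 4.47-fold, adjusted p = 1.92e-06) and SCG by 6.07 ± 0.15 (67.4-fold, adjusted p = 1.95e-09). AM exceeded SCG by 3.91 ± 0.14 (15.1-fold, adjusted p = 6.81e-09). Cyp1b1 was the only one of the 3 family 1 genes above the bound.

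The receptor genes behind family 1 did not follow the same order of tissues. Ahr, the aryl hydrocarbon receptor, was at 10.31 ± 0.31 in CB (SD, n = 3), 7.06 ± 0.19 in AM (n = 4) and 9.32 ± 0.04 in SCG (n = 4). It was higher in CB than in AM (3.24, adjusted p = 4.83e-08) and lower in AM than in SCG (-2.26, adjusted p = 1.73e-07), the opposite of Cyp1b1 in that pair. Arnt, the partner of Ahr, was at 9.01 ± 0.03, 9.49 ± 0.16 and 8.05 ± 0.20 in CB, AM and SCG and was higher in AM than in SCG (1.45, adjusted p = 1.37e-06). CB minus SCG was 0.98 for Ahr (adjusted p = 0.000239) and 0.96 for Arnt (adjusted p = 7.54e-05). Both were in the direction of Cyp1b1 and just short of 2-fold. Ahrr, the repressor that the same receptor induces, was in the background range in every tissue, with its highest mean in AM (5.14 ± 0.08).

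Cyp2e1, which oxidises ethanol, acetone and other small molecules, had the largest difference of any P450 gene between CB and AM. It was at 13.03, 14.26 and 13.13 on the CB arrays (cluster TC0700002023.mm.1). On the AM arrays it was at 5.17, 5.05, 5.15 and 5.16, and on the SCG arrays at 7.88, 8.32, 8.02 and 8.19. All AM arrays were under the bound, all SCG arrays were above it, and no tissue overlapped another. The difference was 8.34 ± 0.25 between CB and AM (adjusted p = 2.56e-09), at least 277-fold against the AM bound, and 5.37 ± 0.25 between CB and SCG (41.5-fold, adjusted p = 1.14e-07). SCG exceeded AM at least 6.68-fold (AM minus SCG -2.97 ± 0.23, adjusted p = 1.80e-06). Without the brightest CB array (replicate 2) the differences of CB from AM and SCG were 7.95 and 4.98.

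Cyp2f2, which activates naphthalene in airway club cells, was the other family 2 gene high in CB against both tissues. Its values were 7.45, 7.92 and 7.54 in CB, 5.12, 5.20, 5.17 and 5.29 in AM and 5.62, 5.62, 5.42 and 5.62 in SCG (cluster TC0700000447.mm.1). All AM arrays and 1 SCG array were under the bound, and CB stood apart from both. CB exceeded AM by 2.44 ± 0.11 (at least 4.86-fold, adjusted p = 7.45e-08) and SCG by 2.07 ± 0.11 (at least 4.17-fold, adjusted p = 3.43e-07). The AM minus SCG difference was -0.37, short of the 2-fold limit (adjusted p = 0.0161). Cyp1b1, Cyp2e1 and Cyp2f2 were the 3 P450 genes higher in CB than in SCG.

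Fat cell genes were high on the same CB arrays. Of the 8 measured adipocyte markers, 7 were higher in CB than in AM and 7 than in SCG, and Lep was in the background range in every tissue. Their summed signal (log2 of the sum of linear values) was 14.12 to 15.01 on the CB arrays, 9.91 to 10.29 on the AM arrays and 9.73 to 10.33 on the SCG arrays. It was highest on CB replicate 2, the array with the highest Cyp2e1 value. Adipoq, the adiponectin gene, was at 9.34 ± 0.54 in CB, 5.09 ± 0.28 in AM and 6.56 ± 0.21 in SCG. Like Cyp2e1 it was higher in SCG than in AM (AM minus SCG -1.47, adjusted p = 0.000308), which the markers did not all share. Of the 8, 0 were called higher and 3 lower in AM than in SCG, with 2 higher and 4 lower at an unadjusted p under 0.05. Pparg, the adipocyte lipid receptor, was at 7.52 ± 0.21, 6.13 ± 0.07 and 6.26 ± 0.15 and was higher in CB than in AM (1.39, adjusted p = 4.34e-06) and SCG (1.26, adjusted p = 8.81e-06). Of the 9 measured fibroblast markers, 9 were higher in CB than in AM and 9 than in SCG (summed signal 18.25 to 18.40, 13.27 to 13.49 and 16.13 to 16.30 in CB, AM and SCG). Mast cell markers were high in CB too: of 5 measured, 5 were higher than in AM, and against SCG 4 were higher and 1 lower. Between AM and SCG, 0 were higher and 1 lower in AM. Their summed signal was 12.38, 13.38 and 13.33 on CB replicates 1 to 3, also highest on replicate 2. In AM it was 7.50 to 7.64 and in SCG 8.88 to 9.49. Hepatocyte markers gave little signal: Alb was in the background range in every tissue (4.89, 5.24 and 4.81 in CB, AM and SCG), as were 7 of 8 markers in CB, 7 in AM and 8 in SCG, with Ahsg at 6.75, 8.69 and 5.40 as the exception. Smooth muscle and pericyte markers followed the tissue order of Cyp1b1: of 6 measured, 5 were higher in CB than in AM, 6 higher in CB than in SCG and 4 higher in AM than in SCG. Their summed signal was 19.50, 19.29 and 19.12 on CB replicates 1 to 3, 14.01 to 14.20 in AM and 11.70 to 12.46 in SCG, and like Cyp1b1 it was highest on CB replicate 1. The part of fat, mast, connective tissue or smooth muscle cells in the Cyp2e1, Cyp2f2 and Cyp1b1 differences was not tested.

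**Figure D3:**
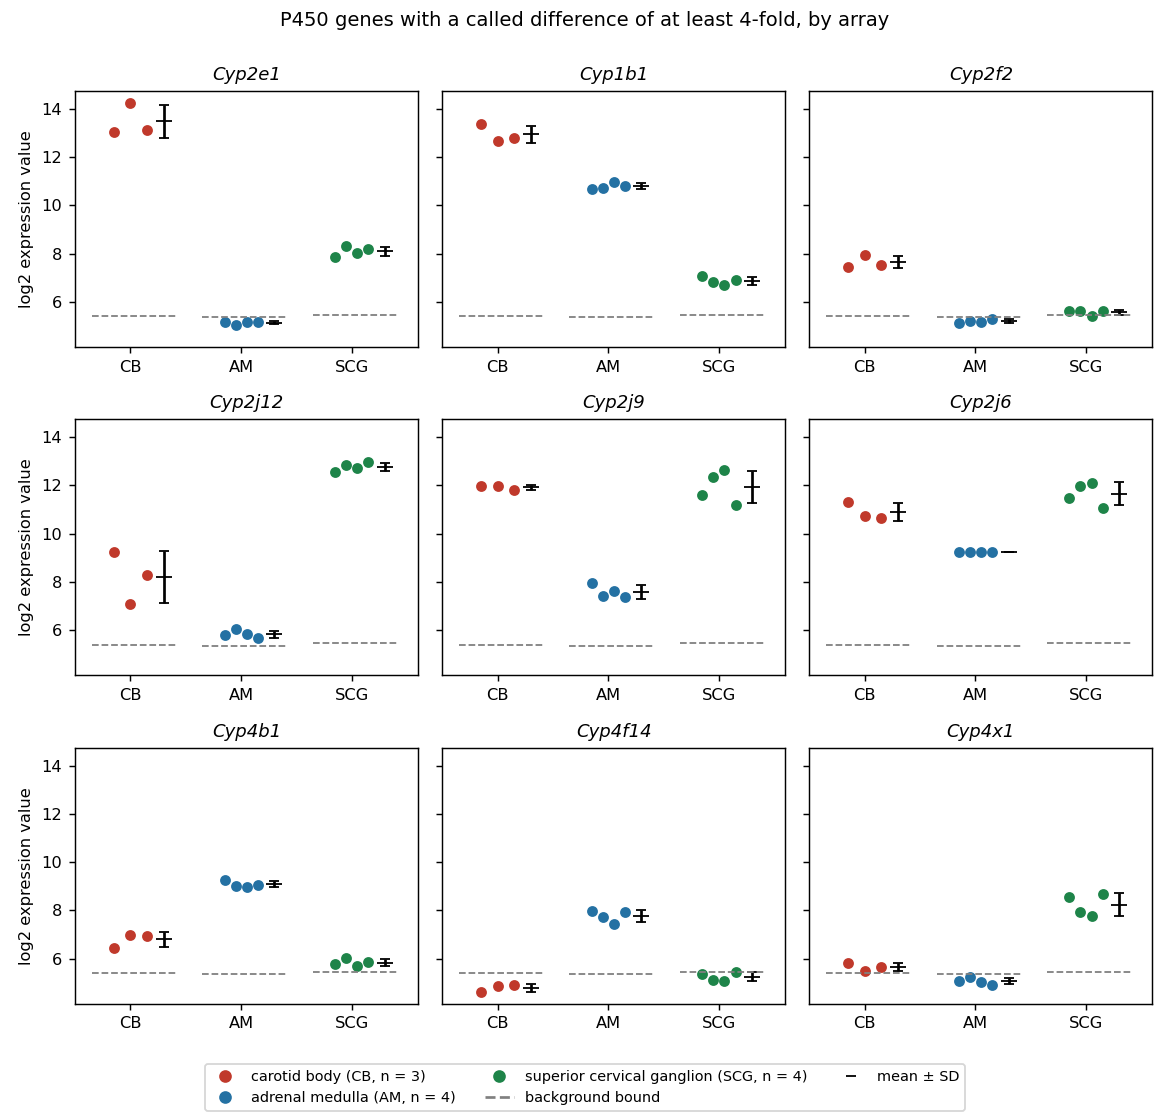
Each panel shows 1 of the 9 P450 genes with a called difference of at least 4-fold: the log2 value of every array (y axis) by tissue (x axis; CB n = 3, AM n = 4, SCG n = 4), the mean ± SD beside the points and the background bound as a dashed line. Cyp2e1 is near 13 to 14 in CB and under the bound in AM, and Cyp2j12 is near 13 in SCG and near 6 in AM.

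The Cyp2j genes encode epoxygenases of arachidonic acid and form a run on chromosome 4, with 1 other annotated gene between the outermost. Their RefSeq order is Cyp2j13, Cyp2j12, Cyp2j7, Cyp2j11, Cyp2j8, Cyp2j6, Cyp2j9 and Cyp2j5, pseudogenes apart. Of the 7 measured, 4 were called in at least 1 comparison, and all 4 were lower in AM than in SCG. Cyp2j11, which lies between called genes, and Cyp2j13 and Cyp2j5, at the ends of the run, were in the background range. The subfamily is made of close paralogues, so a value may hold signal from a neighbour. Their array values differed from each other all the same.

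Cyp2j12 (cluster TC0400003088.mm.1) was at 12.55, 12.83, 12.74 and 12.95 on the SCG arrays, at 9.23, 7.09 and 8.29 on the CB arrays and at 5.79, 6.03, 5.85 and 5.68 on the AM arrays. The tissues did not overlap, and all arrays were above the bound, AM by less than 1 log2 unit. SCG exceeded AM 122-fold (AM minus SCG -6.93 ± 0.35, adjusted p = 5.78e-08) and CB 23.7-fold (CB minus SCG -4.57 ± 0.37, adjusted p = 5.50e-06), and CB exceeded AM by 2.37 ± 0.37 (5.16-fold, adjusted p = 0.000633). The CB arrays were far apart (SD 1.07), and CB minus AM was 1.85 without CB replicate 1 and 2.92 without CB replicate 2. Neuron markers varied in the same way over these arrays: their summed signal was 18.67, 16.88 and 17.73 on CB replicates 1 to 3, and 20.09 to 20.23 in SCG, where 8 of 8 markers were higher than in CB and 8 of 8 higher than in AM. It was 17.03 to 17.66 in AM, while 7 of 8 markers were higher and 0 lower in CB than in AM. The part of neuron number in the Cyp2j12 difference was not tested.

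Cyp2j9 (cluster TC0400003100.mm.1) had another order of tissues. It was at 11.98, 11.97 and 11.80 in CB, at 7.96, 7.40, 7.61 and 7.36 in AM and at 11.62, 12.34, 12.64 and 11.19 in SCG. CB and SCG overlapped, and both stood apart from AM. CB exceeded AM by 4.34 ± 0.30 (20.2-fold, adjusted p = 1.59e-06) and SCG exceeded AM 20.6-fold (AM minus SCG -4.37 ± 0.28, adjusted p = 3.98e-07). CB minus SCG was -0.03, with a 95% interval from -0.70 to 0.64 (adjusted p = 0.956).

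Cyp2j6 (cluster TC0400003097.mm.1) was at 11.33, 10.73 and 10.66 in CB, at 9.25, 9.23, 9.23 and 9.26 in AM and at 11.50, 11.97, 12.09 and 11.06 in SCG. AM lay under both other tissues, which overlapped. CB exceeded AM by 1.67 ± 0.23 (3.18-fold, adjusted p = 0.000279) and SCG exceeded AM 5.33-fold (AM minus SCG -2.41 ± 0.22, adjusted p = 5.84e-06). CB minus SCG was -0.75 (95% interval -1.26 to -0.23, adjusted p = 0.0291), short of 2-fold. Cyp2j8 was above the bound in SCG alone (5.97 ± 0.63, n = 4, with 1 of 4 arrays under it), against 5.23 ± 0.07 in CB and 4.60 ± 0.19 in AM, and SCG exceeded AM at least 1.53-fold (adjusted p = 0.00144). On SCG replicates 2 and 3 the values of Cyp2j6, Cyp2j8 and Cyp2j9 were above those on replicates 1 and 4, which Cyp2j12 did not share. Glia markers were high in the same tissues and on the same SCG arrays. Of 5 measured, 5 were higher in CB than in AM and 5 lower in AM than in SCG, and between CB and SCG 0 were higher and 1 lower in CB (2 and 1 at an unadjusted p under 0.05). Their summed signal was 15.56 to 16.49 in CB, 11.38 to 11.96 in AM and 15.81, 16.07, 16.75 and 15.66 on SCG replicates 1 to 4. Erbb3, a glial growth factor receptor, was at 11.34 ± 0.44, 8.38 ± 0.16 and 11.31 ± 0.37 in CB, AM and SCG, and Sox10, a glial transcription factor, at 9.51 ± 0.06, 7.04 ± 0.21 and 9.15 ± 0.24. The part of glia in the Cyp2j6, Cyp2j8 and Cyp2j9 differences was not tested.

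**Figure D4:**
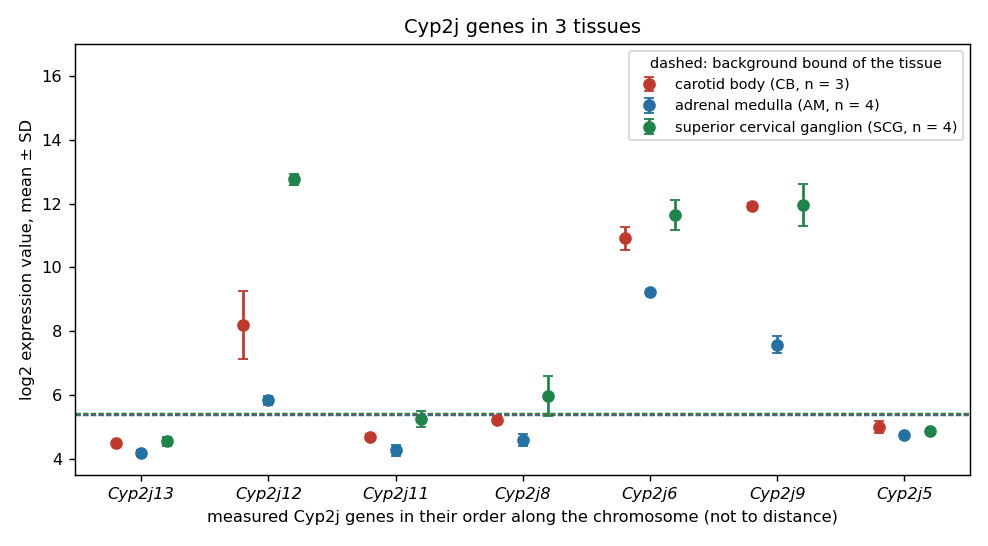
Mean log2 value ± SD (y axis) of the 7 measured Cyp2j genes in their order along chromosome 4 (x axis, not to distance) in CB (n = 3), AM (n = 4) and SCG (n = 4), with each tissue's background bound dashed. Cyp2j12 is near the bound in AM and highest in SCG, Cyp2j6 and Cyp2j9 have CB and SCG close together above AM, and Cyp2j5, Cyp2j11 and Cyp2j13 lie under the bound.

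The genes that act on the products of epoxygenases had a different tissue order. Ephx2, the soluble epoxide hydrolase that inactivates epoxides of arachidonic acid, was at 10.31 ± 0.19 in CB, 8.01 ± 0.21 in AM and 7.75 ± 0.20 in SCG. It was higher in CB than in AM (2.30, 4.93-fold, adjusted p = 7.70e-07) and than in SCG (2.56, 5.89-fold, adjusted p = 4.56e-07). Ephx1, the microsomal epoxide hydrolase, was at 13.35, 14.13 and 13.45 in CB, AM and SCG and was not called in any comparison.

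The other called genes of family 2 had smaller differences. Cyp2s1, which metabolises prostaglandins and responds to dioxin, was at 8.39 ± 0.49 in SCG, 7.16 ± 0.30 in CB and 6.51 ± 0.11 in AM. SCG exceeded CB 2.34-fold (adjusted p = 0.00178) and AM 3.68-fold (adjusted p = 4.44e-05). Cyp2c65, a fatty acid-metabolising enzyme known from the intestine, was the single Cyp2c gene above the bound, in SCG alone: 6.48, 5.93, 6.06 and 6.65 there, against means of 5.14 in CB and 4.81 in AM. SCG exceeded CB at least 1.83-fold (CB minus SCG -1.14, adjusted p = 0.000708) and AM at least 1.89-fold (AM minus SCG -1.47, adjusted p = 5.60e-05). Without CB replicate 3 the CB minus SCG value was -0.98, under the 2-fold limit.

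Cyp2d22, a Cyp2d gene described in brain, was at 9.17, 9.13 and 9.25 in CB, at 8.31, 7.82, 8.21 and 8.02 in AM and at 8.08, 8.31, 8.94 and 8.13 in SCG. CB lay above both other tissues, which overlapped. The difference from AM passed (1.10 ± 0.19, 2.14-fold, adjusted p = 0.00137) and the difference from SCG was 0.82 (adjusted p = 0.00670). With arrays centred on their medians CB minus AM was 0.94 and no longer called, and without SCG replicate 3 CB minus SCG was 1.01 and called. Over the 52 genes of families 2 and 3 other than Cyp2r1, 6 were higher and 0 lower in CB than in AM (unadjusted p under 0.05: 17 higher, 0 lower). In CB against SCG, 2 were higher and 3 lower. In AM against SCG, 0 were higher and 7 lower (unadjusted p under 0.05: 1 higher, 17 lower).

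Family 4 ran the other way between CB and AM. Of its 14 genes, 5 were in the background range. Against AM, 0 were higher and 4 lower in CB (unadjusted p under 0.05: 2 higher, 8 lower), against SCG 0 were higher and 2 lower (1 higher, 4 lower at an unadjusted p under 0.05), and 4 were higher and 1 lower in AM than in SCG. The 4 genes higher in AM than in CB were the same 4 that were higher in AM than in SCG: Cyp4b1, Cyp4f13, Cyp4f14 and Cyp4f17. These comparisons share the AM arrays.

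Cyp4b1, which hydroxylates fatty acids and activates several plant and aromatic toxins, was at 9.26, 9.01, 8.98 and 9.06 on the AM arrays (cluster TC0400003321.mm.1). It was at 6.45, 7.00 and 6.93 in CB and at 5.78, 6.02, 5.70 and 5.84 in SCG. The tissues did not overlap, with AM highest and SCG lowest. AM exceeded CB 4.87-fold (CB minus AM -2.28 ± 0.14, adjusted p = 5.69e-07) and SCG 9.47-fold (3.24 ± 0.13, adjusted p = 9.45e-09). CB minus SCG was 0.96 ± 0.14 (adjusted p = 0.000231), just short of 2-fold. It was called without CB replicate 1 (1.13) and without SCG replicate 2 (1.02).

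Cyp4f14, which hydroxylates leukotrienes and other eicosanoids, was above the bound in AM alone. It was at 7.99, 7.72, 7.42 and 7.92 in AM, at 4.61, 4.87 and 4.90 in CB and at 5.38, 5.10, 5.09 and 5.44 in SCG (cluster TC1700001856.mm.1). All CB and SCG arrays were under the bound, and AM stood apart from both. AM exceeded CB at least 5.13-fold (CB minus AM -2.97 ± 0.15, adjusted p = 1.54e-07) and SCG at least 4.97-fold (2.51 ± 0.14, adjusted p = 1.22e-07).

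The Cyp4f genes form a run on chromosome 17, with 14 other annotated genes between the outermost, in which the pattern was not shared by all. Cyp4f13 was at 8.86 ± 0.12 in AM, 7.43 ± 0.16 in CB and 7.30 ± 0.20 in SCG, 2.70-fold and 2.95-fold higher in AM than in CB and SCG (adjusted p = 6.75e-06 and 1.02e-06). Cyp4f17 was at 7.74 ± 0.20, 6.29 ± 0.20 and 6.28 ± 0.21 in AM, CB and SCG, 2.74-fold and 2.76-fold higher in AM (adjusted p = 2.43e-05 and 7.44e-06). Cyp4f16 and Cyp4f37, which follow Cyp4f17 in the order of Cyp4f genes, were above the bound in every tissue and were not called. Their means were 6.59 and 6.18 in AM, 6.29 and 5.82 in CB and 6.44 and 6.02 in SCG. CB minus AM was -0.29 for Cyp4f16 (adjusted p = 0.0161) and -0.36 for Cyp4f37 (adjusted p = 0.00815), short of 2-fold. Cyp4f15, next to Cyp4f14 in the order of Cyp4f genes, was above the bound in SCG alone. It was at 5.81, 6.19, 5.94 and 5.86 there, against means of 4.92 in CB and 5.15 in AM. SCG exceeded CB at least 1.46-fold (CB minus SCG -1.03, adjusted p = 2.26e-05), which fell to -0.95 without SCG replicate 2 and -0.999 without CB replicate 3, both under the limit of the call. Cyp4f18, on another chromosome, passed the bound in AM alone (5.54 ± 0.06). CB minus AM was -0.60 (adjusted p = 0.000165) and AM minus SCG 0.50 (adjusted p = 0.00025), short of 2-fold and not called.

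Cyp4x1, a family 4 enzyme described in brain, was high in SCG. It was at 8.57, 7.93, 7.75 and 8.69 in SCG, at 5.82, 5.48 and 5.67 in CB and at 5.07, 5.23, 5.04 and 4.92 in AM (cluster TC0400003311.mm.1). SCG stood apart from both other tissues, and all AM arrays were under the bound. SCG exceeded CB 5.97-fold (CB minus SCG -2.58 ± 0.21, adjusted p = 5.85e-06) and AM at least 7.34-fold (AM minus SCG -3.17 ± 0.20, adjusted p = 3.20e-07). CB minus AM was 0.59 (adjusted p = 0.0594). Cyp4x1, Cyp2s1, Cyp2c65 and Cyp46a1 were higher on SCG replicates 1 and 4 than on replicates 2 and 3, the reverse of Cyp2j6 and Cyp2j9.

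Adrenal cortex genes were strong on the AM arrays. All 10 measured cortex markers were higher in AM than in CB and than in SCG, with summed signals of 21.23 to 21.42 in AM, 9.19 to 9.42 in CB and 8.88 to 9.13 in SCG, and Star, the cholesterol transporter of steroid-making cells, was at 18.42 in AM and 5.07 in both others. The 4 cortical P450 genes left out of the set are among these markers. Th and Dbh, which mark catecholamine cells, were high in every tissue (17.69 and 17.68 in CB, 19.57 and 19.84 in AM, 19.22 and 19.83 in SCG). Endothelium markers had summed signals of 15.11 to 15.71 in AM, 14.25 to 14.41 in CB and 10.14 to 10.54 in SCG. Of 6 measured, 3 were higher and 3 lower in CB than in AM. Against SCG, 6 were higher and 0 lower in CB, and 5 higher and 0 lower in AM. The part of cortical or endothelial cells in the AM-high values of Cyp4b1, Cyp4f13, Cyp4f14 and Cyp4f17, and in the lower values of other genes in AM, was not tested.

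Enzymes of cholesterol and bile acid metabolism were present in all 3 tissues in 4 of 6 cases, with small differences. Cyp46a1, the neuronal enzyme that turns cholesterol into an oxysterol that can leave the brain, was at 7.40, 6.56, 6.45 and 7.20 in SCG, with means of 5.77 in CB and 5.80 in AM. SCG exceeded CB 2.18-fold (CB minus SCG -1.13, adjusted p = 0.00178) and AM 2.15-fold (AM minus SCG -1.10, adjusted p = 0.00119). Without SCG replicate 1 both values were under the limit of the call, at -0.96 and -0.94. Cyp39a1, which hydroxylates the oxysterol that Cyp46a1 makes, was at 9.53 ± 0.15 in CB, 8.33 ± 0.18 in AM and 9.61 ± 0.33 in SCG. It was higher in CB than in AM (1.20, 2.29-fold, adjusted p = 0.000320) and lower in AM than in SCG (-1.28, 2.43-fold, adjusted p = 7.34e-05).

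Cyp27a1, the mitochondrial sterol hydroxylase, was at 7.53 ± 0.38 in CB, 6.75 ± 0.17 in AM and 6.55 ± 0.21 in SCG, with CB minus SCG at 0.98 (adjusted p = 0.00124), just short of 2-fold and past it without CB replicate 1 or SCG replicate 3. Cyp7b1, which clears oxysterols, differed by no more than 0.20 between tissue means (7.01, 7.06 and 7.21 in CB, AM and SCG). Of the 6 genes, 1 was higher and 0 lower in CB than in AM (2 and 0 at an unadjusted p under 0.05), 0 were higher and 1 lower in CB than in SCG (1 and 3), and 0 were higher and 2 lower in AM than in SCG (0 and 2). Cyp51, the sterol demethylase of cholesterol synthesis, whose symbol lies outside the rule, was at 8.16 ± 0.56 in CB, 9.60 ± 0.76 in AM and 11.06 ± 0.28 in SCG, and each pair of tissues differed (adjusted p = 0.0156 for CB minus AM, 0.000142 for CB minus SCG and 0.00803 for AM minus SCG).

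The remaining genes above the bound in every tissue were not called. Cyp20a1, an orphan enzyme with no settled substrate, was at 10.21 ± 0.05 in CB, 11.02 ± 0.14 in AM and 10.44 ± 0.16 in SCG. Its AM arrays lay above all CB and SCG arrays, and the differences were under 2-fold (CB minus AM -0.81, adjusted p = 0.000138; AM minus SCG 0.58, adjusted p = 0.000626). Cyp26b1, which breaks down retinoic acid, was at 6.37 ± 0.28, 5.61 ± 0.10 and 5.70 ± 0.13 in CB, AM and SCG, with CB minus AM at 0.75 (adjusted p = 0.000967) and CB minus SCG at 0.66 (adjusted p = 0.00173). Cyp2u1, a fatty acid hydroxylase, was at 6.86, 6.97 and 6.91, and Cyp2r1, which makes the circulating form of vitamin D, at 6.11, 6.51 and 6.37 in CB, AM and SCG. Cyp2d10 lay just above the bound in CB and SCG (5.71 and 5.47), and Cyp3a13 in SCG alone (5.52), and neither was called.

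Some genes that supply P450 enzymes with electrons and haem were higher in AM. Por, Cyb5a, Fdxr and Fdx1l had no feature with a single symbol and were not analysed here. Of the 6 measured electron donors and partners, 3 were lower in CB than in AM, 3 lower in CB than in SCG and 2 higher in AM than in SCG, and the reverse call was made for 0 (unadjusted p under 0.05: 0, 0 and 1). Fdx1, the ferredoxin of mitochondrial P450 enzymes, was at 13.19 ± 0.53 in AM, 6.89 ± 0.11 in CB and 6.59 ± 0.22 in SCG, 78.7-fold and 96.7-fold higher in AM (adjusted p = 1.87e-08 and 4.85e-09). Cyb5b, the cytochrome b of the outer mitochondrial membrane, was at 11.88 ± 0.49, 8.81 ± 0.42 and 11.12 ± 0.06 in AM, CB and SCG, and Pgrmc1, a haem-binding partner, at 15.10 ± 0.18, 12.60 ± 0.29 and 14.07 ± 0.14. Both were lower in CB than in AM (adjusted p = 5.33e-06 and 4.74e-07) and than in SCG (3.60e-05 and 1.94e-05).

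Of the 11 genes of haem synthesis and breakdown, 4 were lower in CB than in AM and 4 were higher in AM than in SCG. Between CB and SCG 0 were called by limma. The 5 at an unadjusted p under 0.05 were all lower in CB. All 5 also had an adjusted p under 0.05, with differences short of 2-fold. Alas1, the first enzyme of haem synthesis, was at 11.24 ± 0.79 in AM, 7.77 ± 0.20 in CB and 7.74 ± 0.31 in SCG, 11.1-fold and 11.3-fold higher in AM (adjusted p = 3.07e-05 and 9.11e-06). Hmox1, which opens the haem ring, was at 11.32 ± 0.80, 6.31 ± 0.32 and 5.80 ± 0.17, 32.4-fold and 45.9-fold higher in AM (adjusted p = 1.76e-06 and 2.25e-07). The cortical P450 genes and cortex markers were high on the same arrays, and their part in these differences was not tested.

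Receptors that control P450 genes differed in both directions. Of 19 measured, 3 were higher and 2 lower in CB than in AM, 2 higher and 0 lower in CB than in SCG (9 higher and 1 lower at an unadjusted p under 0.05), and 3 higher and 3 lower in AM than in SCG. Vdr, the vitamin D receptor, was at 9.67 ± 0.33 in AM, 6.10 ± 0.27 in CB and 5.85 ± 0.21 in SCG (11.9-fold and 14.2-fold, adjusted p = 2.44e-07 and 2.98e-08), while Cyp24a1, the vitamin D hydroxylase it induces in kidney, was in the background range in AM. Nr1h4, the bile acid receptor, was above the bound in AM alone (7.80 ± 0.30), at least 5.27-fold and 5.11-fold higher than in CB and SCG (adjusted p = 8.48e-07 and 7.98e-08). Rxrg, a retinoid X receptor, was at 7.98 ± 0.19 in CB and 7.93 ± 0.42 in SCG and in the background range in AM (5.28 ± 0.11), at least 6.16-fold and 5.95-fold lower (adjusted p = 2.07e-06 and 6.91e-07).

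Genes of conjugation and other oxidation were higher in CB in several cases. Of 16 measured, 4 were higher and 1 lower in CB than in AM, 5 higher and 2 lower in CB than in SCG, and 3 higher and 2 lower in AM than in SCG. Fmo2, a flavin monooxygenase known from lung, was at 11.44 ± 0.55 in CB, 9.49 ± 0.17 in AM and 6.91 ± 0.24 in SCG, 3.87-fold and 23.1-fold higher in CB (adjusted p = 6.89e-05 and 1.90e-07). Sult1a1, a phenol sulphotransferase, was at 10.15 ± 0.33, 8.09 ± 0.08 and 8.02 ± 0.23, 4.18-fold and 4.40-fold higher in CB (adjusted p = 3.12e-06 and 2.90e-06). Gstm1, a glutathione transferase, was at 14.50 ± 0.02, 15.67 ± 0.17 and 12.75 ± 0.10 in CB, AM and SCG, 7.57-fold higher in AM than in SCG (adjusted p = 3.08e-09).

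Of the 9 measured genes of retinoid supply, 1 was higher and 2 lower in CB than in AM, 2 were higher and 0 lower in CB than in SCG (3 and 1 at an unadjusted p under 0.05), and 5 were higher and 1 lower in AM than in SCG. Aldh1a1, which makes retinoic acid, was at 10.59 ± 0.22 in CB, 9.99 ± 0.65 in AM and 7.67 ± 0.33 in SCG, 7.57-fold higher in CB than in SCG (adjusted p = 3.15e-05). Aldh1a3, another retinoic acid-making enzyme, was at 8.73 ± 0.23 in AM, 5.82 ± 0.13 in CB and 5.53 ± 0.09 in SCG, 7.50-fold higher in AM than in CB and at least 9.14-fold higher than in SCG (adjusted p = 4.06e-08 and 6.07e-09). Cyp26b1, the one retinoic acid hydroxylase above the bound, was not called in any of these pairs.

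**Figure D5:**
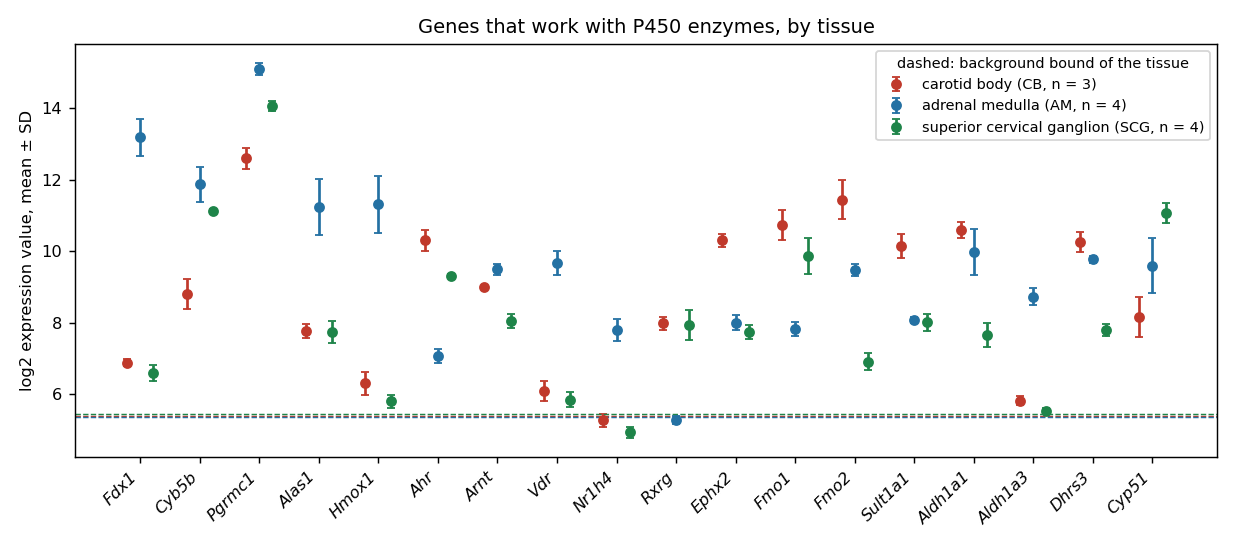
Mean log2 value ± SD (y axis) of 18 genes that work with P450 enzymes (x axis) in CB (n = 3), AM (n = 4) and SCG (n = 4), with each tissue's background bound dashed. Fdx1, Alas1, Hmox1 and Vdr stand above the other tissues in AM, and Ephx2, Fmo2 and Sult1a1 in CB. Levels of different genes come from different probes and are not comparable.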

How the data were processed

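The deposited table holds log2 expression values made by the authors with Affymetrix Expression Console and RMA (background correction, quantile normalisation and probe summary), as the submitters' processing notes list them. The versions are not given in the sources used here. Array maxima were 19.65 to 19.93, high for a log2 scan signal, so a rescaling step is possible, and folds are on the scale of the deposited values. Array medians over the tested genes lay between 5.63 and 5.84, and the number of arrays limits the precision. Of 65956 transcript clusters, 30604 paired with 1 symbol in the array's annotation, 2146 with several and 33206 with none. The brightest cluster of each gene by its mean over all arrays was kept, which gave 30142 genes, and 819 symbols were updated through a RefSeq table. That table also gave promoter windows and gene order. The array's own build is not stated.

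Tissue was the only factor in 1 limma fit of all 11 arrays (lmFit, then eBayes; R 4.3.3 with limma 3.58.1), tested on simulated data. P-values measure the spread between pools. Folds against a mean under the background bound, or with single arrays under it, use the bound and are given as "at least". Per-array values are given for called genes with a difference of at least 2 log2 units, means or arrays for other called genes, and means for uncalled genes above the bound in every tissue. Most companion genes named had large called differences, and Ahrr and Ephx1 were named without a call. Not every large difference is described: Fmo1, for example, was 7.50-fold higher in CB than in AM. The P450 genes, their roles, the companion lists, the markers and the naming rule were chosen with earlier results of these data known. The replicate numbers in the labels are shared between tissues: over 10 same-numbered pairs the correlation of deviations ran from -0.17 to 0.25, and 1 pair exceeded 0.1, so the numbers were not taken to pair the pools. Alternatives were array scaling, array weights, control features as a covariate, filters on dim genes, other features, other background bounds, a replicate block and leaving out each array.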

Additional observations from a re-analysis of the deposited data

Results flagged for a closer look

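Groups of 4 arrays in AM and in SCG were searched for 1 array far from the others. The 26 genes were the 18 called and 8 uncalled ones above the bound in every tissue. Such an array was found in 5 of 52 groups, where chance gives about 1 in 20 for values without ties. Cyp2u1 in SCG had the same value on all 4 arrays and could not be tested. In SCG, Cyp2f2 and Cyp4f16 each had 1 identical value on 3 arrays, so any other value on the remaining array was bound to be flagged. Of the 83 P450 genes, 50 had 3 or more arrays at 1 identical value, beside 34.5% of all genes. Cyp2e1 in AM was at 5.05 on replicate 2, against 5.15 on the nearest array, with all 4 under the background bound. Cyp2f2 in SCG was at 5.42 on replicate 3, against 5.62 on each of the others. Cyp26b1 in AM was at 5.47 on replicate 1, against 5.65 on the nearest. Cyp4f16 in SCG was at 6.40 on replicate 1, against 6.45, and Cyp4f37 in SCG at 5.95 on replicate 1, against 6.04.

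Of 10 clusters that pair with several symbols and name a P450 gene or pseudogene, which entered no comparison, 3 lay above the bound in all tissues. Cluster TC0400003320.mm.1, which the annotation pairs with Cyp4b1-ps2 and Gm12839, was at 6.08 in CB, 8.51 in AM and 5.93 in SCG. Cluster TC0800002144.mm.1, paired with Cyp4v3 and Klkb1, was at 6.49, 6.89 and 6.29. Cluster TC1500001945.mm.1, paired with Cyp2d11 and a microRNA, was at 5.74, 5.68 and 5.70. None of these signals can be assigned to 1 gene.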

How the results depend on the processing

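Of the 36 called differences of the 18 genes, 31 kept their direction and call under all 20 alternative fits, and 0 reversed. The 5 others (Cyp2c65, Cyp2d22, Cyp4f15 and, in a pair of comparisons, Cyp46a1) lay near the 2-fold limit. The count of genes higher in CB than in SCG was 3, and 5 after repeated quantile normalization (Cyp27a1 and Cyp2d22 added) and with array weights (Cyp27a1 and Cyp4b1 added), with a range of 3 to 5 when each array was left out. It was 5 without CB replicate 1 and without SCG replicate 3. Cyp46a1 fell under the limit with array weights (CB minus SCG -0.95, AM minus SCG -0.99) and with control features as a covariate (-0.95 and -0.96), and the cause was not tested. Cyp4b1 was called in CB minus SCG with array weights (1.02) and Cyp2j8 with the covariate (-1.02).

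A fit with the replicate number as a block left the counts at 8 higher and 4 lower (CB against AM), 3 and 6 (CB against SCG) and 5 and 10 (AM against SCG), and changed no call. Only 1 array correlated best with its own number. The 54 genes in the background range were 50 with the bound at the 90th percentile, 62 at the 99th, and 52 with 1225 olfactory receptor genes in place of the silent families. Median centring moved the median of all genes from 0.05 to -0.10 in CB minus AM. Dim genes near the bound have no measured order.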

Other observations

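Some P450 features lay outside the rule because of their symbols. Cyp21a2-ps, a pseudogene and close copy of the cortical gene Cyp21a1, was at 18.64 ± 0.13 in AM (SD, n = 4), 5.45 ± 0.13 in CB (n = 3) and 5.36 ± 0.25 in SCG (n = 4), while Cyp21a1 was at 18.56 ± 0.20, 5.46 ± 0.18 and 5.55 ± 0.28. Signal of the gene and of its copy cannot be told apart on these probes. Cyp2j7-ps, in the Cyp2j group, was above the bound in SCG alone, at 5.73 ± 0.32 against 5.06 ± 0.10 in CB and 4.77 ± 0.19 in AM, and no difference reached 2-fold between SCG and CB (CB minus SCG -0.66, adjusted p = 0.00872).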
